A study of Homo sapiens with 3 samples.

Results

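Telomerase and the shelterin complex are encoded by 9 genes, which were taken by name from GENCODE release 44 on the hg19 build of the human genome. They are TERT, TERC and DKC1 of the telomerase ribonucleoprotein, and TERF1, TERF2, POT1, TINF2, TERF2IP and ACD of shelterin. A total of 8 of them are among the 20162 protein-coding genes of that annotation, and TERC is annotated as a long noncoding RNA (lncRNA), within 64440 annotated genes in all. An ETS1 peak was assigned to a gene when its midpoint lay within 5 kb of one of the gene's transcription start sites (TSSs), inside the gene body, or within 50 kb of it. By this rule the 9 loci held 38 of the 26970 ETS1 peaks, and each locus held at least 1.

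Telomeres are the repeated DNA ends of chromosomes, which shorten as cells divide unless telomerase extends them. TERT is the reverse transcriptase, TERC the RNA that carries its template, and DKC1 the dyskerin protein that binds and stabilises TERC. Shelterin covers the repeats and keeps them from being read as broken DNA. TERT is silent in most somatic cells and active in most carcinomas, whereas the shelterin genes are expressed in nearly every cell type. In several cancer types, recurrent mutations of the TERT promoter create binding motifs for ETS factors, the family to which ETS1 belongs. The genotype of SCC25 at that promoter was not examined here.

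ETS1 binding was measured by ChIP-Seq in untreated SCC25 cells, an established line of tongue squamous carcinoma that the labels describe as mesenchymal. There were 3 ChIP samples, of which 2 used the C20 antibody and 1 used the 501A antibody, both directed at ETS1, and all came from this 1 line. The study merged them by IDR, a procedure that keeps peaks ranked alike between replicates, into 1 list of chromosome, start and end. The list carries no score, summit, read count or value per sample, so neither a spread between replicates nor the depth behind a peak could be given, the antibodies could not be compared, and no difference below was tested.

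The sequence just upstream of the RNA-coding and the catalytic subunit genes is printed first, because TERC had a peak there and TERT had none. Capitals mark the ETS core, defined as GGAA with an A or a C before it and an A or a G after it, which is AGGAAA or the variant AGGAAG as well as CGGAAA or the variant CGGAAG. Both strands were searched, so a core on the opposite strand is printed as its reverse complement and contains TTCC. Each stretch holds the 200 bases before the TSS of the canonical transcript, 5′ to 3′ on the gene's strand, which is the minus strand for both (GRCh37, chr5:1295184-1295383 for TERT and chr3:169482849-169483048 for TERC).
TERT: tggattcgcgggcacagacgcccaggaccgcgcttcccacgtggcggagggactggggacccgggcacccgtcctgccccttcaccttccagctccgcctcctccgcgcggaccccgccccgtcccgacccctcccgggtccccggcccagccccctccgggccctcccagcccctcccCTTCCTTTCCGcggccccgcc
TERC: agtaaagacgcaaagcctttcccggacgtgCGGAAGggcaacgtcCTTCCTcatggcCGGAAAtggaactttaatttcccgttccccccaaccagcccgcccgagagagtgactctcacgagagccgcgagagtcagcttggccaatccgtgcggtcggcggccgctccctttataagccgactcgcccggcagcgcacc
Both stretches held the core. TERT had 2 cores, at positions -18 and -13 and sharing 1 base, and TERC had 3, at positions -168, -152 and -141 (bases from the TSS, negative upstream, taken at the second base of GGAA). Among all protein-coding genes 52.5% had a core in the same 200 bases and 21.3% had 2 or more. A match of these letters is a description of the sequence and not evidence of a binding site.

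The shorter stretches of 30 bases below show a part of the peak at other promoters, and not every core of these peaks is printed. No stretch is printed for TERF1, whose peak held 7 cores. Each stretch below was read on the strand on which a core runs GGAA, and capitals again mark every core in the stretch.
DKC1 (chrX:153991259-153991288, minus): gttagcacggccCGGAAGcctgcagccctt
TERF2 (chr16:69419826-69419855, plus): cgacgcccgggcCGGAAGcggggcccgccg
POT1 (chr7:124569857-124569886, plus): agaaagaaccctAGGAAGagtttaggcggg
TINF2 (chr14:24711819-24711848, minus): tagtagcggagcCGGAAGtgaggcaccctc
TERF2IP (chr16:75682100-75682129, plus): cggacaccggctCGGAAGcaaagcccgggg
ACD (chr16:67694181-67694210, plus): cccgccTTTCCTCGGAAGAGGAAGctcctt
The DKC1 and TERF2 stretches are the cores within 100 bp of a peak midpoint that extend to CCGGAA. The TINF2 stretch holds the longer form CCGGAAGT, the POT1 stretch lies just beyond 100 bp from its peak midpoint, and the ACD stretch holds 3 cores side by side.

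Promoter peaks, whose midpoint lies within 500 bp of any annotated TSS of the gene, were present at 8 of the 9 genes and absent at TERT. The 8 are TERC, DKC1 and all 6 shelterin genes. Of all protein-coding genes 53.1% had a promoter peak, and of lncRNA genes, the class of TERC, 15.7% did. All 9 genes have a CpG-rich promoter, meaning that the 500 bp on each side of the canonical TSS had a GC content of at least 50% and a CpG observed/expected ratio of at least 0.6. Protein-coding genes with such a promoter carried a promoter peak in 71.4% of cases, and those without one in 21.0%. The count for the 8 protein-coding genes, 7 with a promoter peak, is therefore best read beside the CpG-rich share. For lncRNA genes with a CpG-rich promoter, as TERC has, no share was counted, so TERC has no matched background here. It was the same 8 genes that had a peak within 5 kb of a TSS, against 62.2% of protein-coding genes and 78.9% of those with a CpG-rich promoter. With the canonical TSS alone the 500 bp limit also gave these 8, against 46.7% of protein-coding genes. The canonical TSS lay inside the peak interval at each of the 8, against 52.2% of protein-coding genes. For the canonical TSS no share among genes with a CpG-rich promoter was counted.

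**Figure D1:**
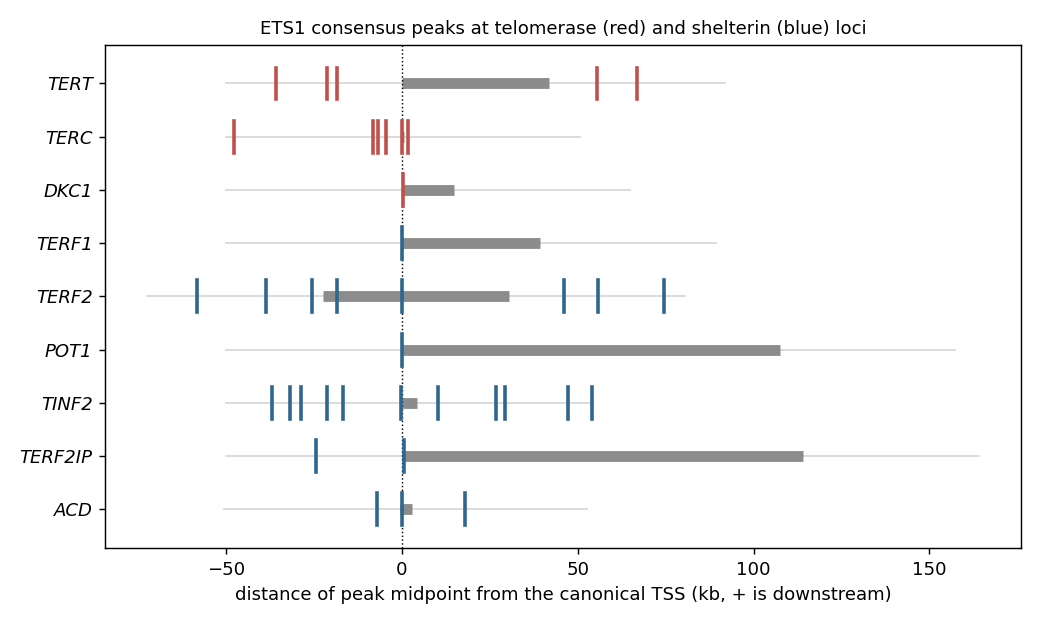
ETS1 consensus peaks at the telomerase (red) and shelterin (blue) loci, drawn as vertical marks of fixed thickness at the peak midpoint, with the distance from the canonical TSS in kb on the x axis (positive is downstream of the gene). Thick grey bars are gene bodies and thin lines the 50 kb on each side. TERT is the gene with no mark at its TSS, while DKC1, TERF1 and POT1 have 1 mark each, at the TSS.

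TERT, the catalytic subunit (chr5:1253262-1295183, minus strand), had no ETS1 peak within 5 kb of any of its 6 TSSs and none in its gene body. Its locus held 5 peaks, of 734, 980, 909, 1095 and 1516 bp. The nearest, chr5:1313075-1313983, had its midpoint 18346 bp upstream of the TSS, and the nearest on the downstream side lay 55488 bp from it, beyond the end of the gene. With the TSSs of all transcripts counted, all 5 were nearer to another protein-coding gene. This was CLPTM1L for the 3 upstream peaks, at 8415, 5518 and 1023 bp, and SLC6A18 for the downstream peaks, at 2715 and 14171 bp. The canonical TSS of CLPTM1L lay outside the 50 kb window, so these distances run to other CLPTM1L starts. By canonical TSSs alone, the peaks at 18346 and 21243 bp were nearer to TERT than to CLPTM1L. With every annotated gene counted, the nearest TSS was that of MIR4457 for the peak at 18346 bp, at 4037 bp, and that of ENSG00000287486 for the peak of 980 bp, at 12426 bp. No peak of the locus lay within 500 bp of a neighbour's TSS. A peak of 2009 bp at 224 bp from a further CLPTM1L TSS, chr5:1344434-1346442, fell just outside the 50 kb limit, at 50255 bp from TERT. Thus the peaks around TERT flanked the gene on both sides and left its promoter and body without one.

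A distance of 18346 bp was not rare in this list. For 67.6% of protein-coding genes the nearest peak was as near as that of TERT or nearer, and for 19.3% of genes with a CpG-rich promoter (2500 of 12922) it was as far or farther. The pattern of TERT, no peak within 5 kb and at least 1 within 50 kb of the gene body, was found at 12.2% of genes with a CpG-rich promoter. The TERT promoter had the highest GC content of the 9, 76.4%, against 50.4 to 66.9% for the other 8. Within 500 kb on either side of TERT lay 31 peaks, more than around 77.1% of protein-coding genes. Within the same 500 kb, 5 of 10 other protein-coding genes had a promoter peak. The 500 bp on each side of the TERT TSS held 4 cores, and 43.7% of protein-coding genes had as many or more. Among genes with a CpG-rich promoter, 36.5% of those without a promoter peak and 57.6% of those with one had a core in the 200 bases upstream. Whether a weaker TERT signal fell below the IDR threshold cannot be read from the list, because it holds only the peaks that passed. Whether the high GC content, the peaks nearby or the cores have a part in this absence was not tested.

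**Figure D2:**
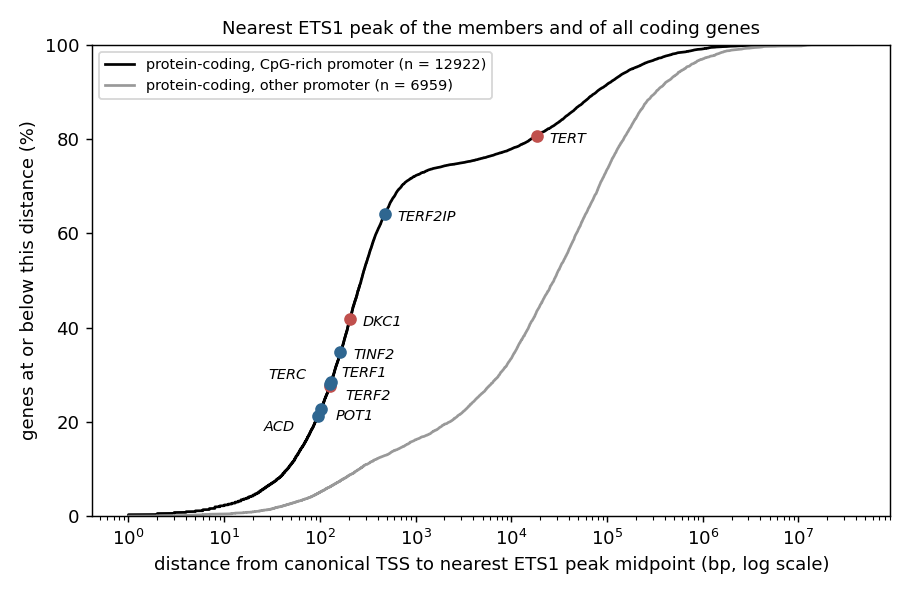
Cumulative share of protein-coding genes (y axis, percent) by distance from the canonical TSS to the nearest ETS1 peak midpoint (x axis, bp, log scale), for genes with a CpG-rich promoter (black) and other promoters (grey). The 9 genes are placed on the black curve at their own distance, telomerase in red and shelterin in blue, including TERC, which is not protein-coding. TERT, at 18346 bp, stands apart from the other 8, which lie between 95 and 479 bp.

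TERC, the template RNA (chr3:169482308-169482848, minus strand), lay entirely under a peak of 1310 bp, chr3:169482068-169483377, whose midpoint fell inside the gene's only exon, 126 bp from the TSS. Cores were dense here, with 9 in the peak, or 6.87 per kb, against a median of 3.58 per kb for all 10376 promoter peaks of protein-coding genes. In the 500 bp on each side of the TSS there were 8 cores, and 4.14% of protein-coding genes had as many or more. One CGGAAA sat 2 bp from the midpoint of the peak, inside the RNA gene. The 3 cores of the upstream stretch printed above were also covered by the peak.

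TERC, with 14 peaks within 500 kb on either side (44.4% of protein-coding genes had fewer), shares its locus with other genes. Its locus held 6 peaks, of which 2 were nearer to TERC itself than to any protein-coding gene, the promoter peak and a small one of 350 bp at 1768 bp downstream of the TSS. The others lay at or near protein-coding genes, with 3 of them at a promoter. These were a peak of 518 bp at 33 bp from the TSS of ACTRT3, one of 1183 bp at 161 bp from that of MYNN, which encodes a zinc finger protein, and one of 883 bp at 30 bp from that of LRRIQ4. A further peak of 402 bp lay 1459 bp from the MYNN TSS. All 4 other protein-coding genes with a canonical TSS in the 50 kb window, LRRC34 included, had a promoter peak. The ACTRT3 peak also fell within 5 kb of the TERC TSS, at 4534 bp, and the rule alone does not tell whose peak it is.

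DKC1, which encodes dyskerin (chrX:153991017-154005964, plus strand), had 1 peak in its locus, at its promoter. The peak, chrX:153990699-153991991, was 1293 bp wide, covered 12 of the 23 annotated TSSs and had its midpoint in intron 1, at 206 bp from the canonical TSS. It stood late in the list, at position 25594 of 26970, and was the only promoter peak of the 9 genes absent from the first 13485 peaks. What the order of the list stands for is not given in the sources used here. Cores were found at 114 and 135 bp from the TSS, on opposite strands, and the peak held 4 in all. No other protein-coding gene within 50 kb had a promoter peak, of 2 (GAB3 and MPP1), whereas 14 of 32 did within 500 kb.

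TERF1 and TERF2 encode the proteins that bind the double-stranded telomere repeat directly, TRF1 and TRF2. Their promoter peaks were almost equal in width, 963 bp at TERF1 and 959 bp at TERF2, and had their midpoints in the coding part of exon 1 at 128 and 130 bp from the canonical TSS. They differed in core content, since the TERF1 peak held 7 cores, or 7.27 per kb, and the TERF2 peak held 2, or 2.09 per kb. The first lay above and the second below the median of 3.58 per kb, and the counts are those of single peaks without a test.

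The loci of this pair also differed in how many other peaks they held. TERF1 (chr8:73921091-73960358, plus strand) had 1 peak within the gene body and 50 kb, and 9 peaks within 500 kb on either side. TERF2 (chr16:69389470-69442474, minus strand) had 8 and 24 peaks in the same windows. Its promoter peak, chr16:69419301-69420259, was the earliest of the 8 in the list, at position 396. Of the other 7 peaks, 2 had TERF2 as the protein-coding gene with the nearest TSS. One, of 397 bp, lay in the body of a transcript that starts upstream of the canonical one, at 18612 bp from the canonical TSS, and the other, of 651 bp, lay 3094 bp upstream of the first TSS. The remaining 5 had as their nearest protein-coding gene VPS4A at 90 bp, PDF at 228 bp, NIP7 at 1 bp and CYB5B at 14 and 14348 bp, so that 4 of them were at promoters of other protein-coding genes. The last of these lay 78 bp from the TSS of ENSG00000261527. NIP7, a ribosome biogenesis factor, had a peak of 1454 bp at position 103 of the list.

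POT1 encodes the shelterin protein that binds the single-stranded end of the telomere (chr7:124462440-124570037, minus strand). Its peak, chr7:124569660-124570305, was the narrowest of the 8 at 646 bp, and 7.47% of promoter peaks of protein-coding genes were narrower. It was also the most isolated, being the only peak within 500 kb of the TSS on either side, a count lower than which was found at 3.62% of protein-coding genes. The next peak outside lay 1073718 bp from the gene. The midpoint was 103 bp upstream of the canonical POT1 TSS, 16 bp from another POT1 TSS and 15 bp from the canonical TSS of POT1-AS1, a lncRNA on the opposite strand, which has another TSS at 1 bp. Peaks have no strand, so the binding cannot be assigned to POT1 or to POT1-AS1. POT1 was the only one of the 8 with no core in the 200 bp centred on the midpoint, and its nearest core, printed above, lay 111 bp from it and 8 bp downstream of the canonical TSS.

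TINF2 encodes TIN2, which bridges the DNA-binding proteins of shelterin (chr14:24707492-24711869, minus strand). Its promoter peak, chr14:24710962-24713024, measured 2063 bp, covered 21 of the 24 annotated TSSs and had its midpoint 164 bp upstream of the canonical TSS, 124 bp outside the gene. The peak held 9 cores, with 6 in the 500 bp on each side of the TSS. One of them, 5 bp before the TSS, was the only CCGGAAGT in a promoter peak of the 8 genes, a sequence present in 13.0% of all promoter peaks of protein-coding genes. The start of a lncRNA on the opposite strand, ENSG00000289979, also lay in the peak.

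The TINF2 locus held the most peaks of the 9, 11, and 10 of them were nearest to another protein-coding gene. In this gene-dense interval 10 of 12 other protein-coding genes had a promoter peak. These are annotation entries that can share a peak, and they include MDP1 and an entry that joins it to a neighbour. Of the 11 peaks, 7 lay at promoters of such genes. They belonged to IPO4 at 102 bp, TM9SF1 at 64 bp, CHMP4A at 100 bp, MDP1 at 17 bp, GMPR2 at 9 bp, TGM1 at 325 bp and RABGGTA at 31 bp. A second peak lay 689 bp from the TSS of TGM1, the gene for the transglutaminase of the epidermal cornified envelope, whose promoter peak was 2834 bp wide. A further 2 had RABGGTA as the nearest protein-coding gene, at 2726 and 7981 bp, and ENSG00000286825 as the nearest gene of any class, at 2611 and 7866 bp. The GMPR2 peak stood at position 65 of the list. The IPO4 peak fell just inside the 50 kb limit, at 49601 bp from TINF2, and the next one beyond the limit lay at 54118 bp.

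TERF2IP, which encodes RAP1, the partner of TRF2 (chr16:75681671-75795770, plus strand), and ACD, which encodes TPP1, the partner of POT1 that recruits telomerase (chr16:67691415-67694713, minus strand), both start close to a protein-coding gene on the opposite strand. The TSS of KARS1, a lysyl-tRNA synthetase, lay 108 bp from that of TERF2IP, and the TSS of PARD6A, a cell polarity gene, lay 700 bp from that of ACD. Such a partner up to 1 kb upstream was present at 9.46% of protein-coding genes, of which 87.4% had a promoter peak. The peaks were wide at both. That of TERF2IP, chr16:75681145-75683156, was 2012 bp and covered the canonical TSS of each gene of its pair, and that of ACD, chr16:67693167-67695350, was 2184 bp and did the same. Among the promoter peaks of protein-coding genes 83.8% were narrower than the first and 87.8% narrower than the second. Which gene of a pair the binding belongs to cannot be told apart.

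Within these wide peaks the positions differed. The midpoint at TERF2IP lay 479 bp downstream of the canonical TSS, in the coding part of exon 1, and 144 bp from another TSS of the gene. The canonical KARS1 TSS was 587 bp away from it. With all annotated TSSs counted, KARS1 did have a promoter peak by the 500 bp rule, and 8 of its TSSs lay inside this peak. At ACD the midpoint lay 95 bp upstream of the canonical TSS and 605 bp from that of PARD6A, which had no promoter peak by the same rule. The ACD peak held the most cores of the 8, 11, and was the only one without a CCGGAA. The TERF2IP peak held 5. Besides its promoter peak TERF2IP had 1 peak in its locus, of 881 bp at 27 bp from the TSS of ADAT1, and ACD had 2, of 726 bp at 2790 bp from CARMIL2 and of 2768 bp at 23 bp from C16orf86. ACD lies in the most peak-rich of the 9 surroundings, with 50 peaks within 500 kb on either side, more than around 95.5% of protein-coding genes.

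**Figure D3:**
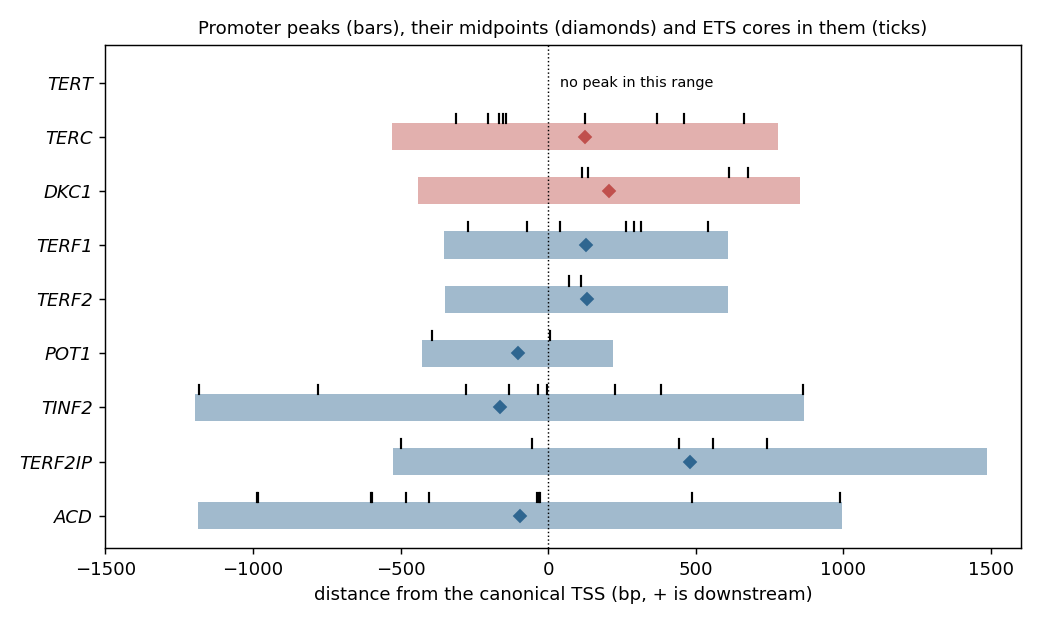
Extent of the promoter peak of each gene (bars), its midpoint (diamonds) and each ETS core inside it (ticks), against distance from the canonical TSS in bp (positive is downstream). Telomerase genes are red and shelterin genes blue. Each of the 8 peaks spans the TSS, from the 646 bp of POT1 to the 2184 bp of ACD, and TERT has none in this range.

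Peak width is the only quantity that the list gives for a peak. The 8 promoter peaks were 646 bp at POT1, 959 bp at TERF2, 963 bp at TERF1, 1293 bp at DKC1, 1310 bp at TERC, 2012 bp at TERF2IP, 2063 bp at TINF2 and 2184 bp at ACD, with a median of 1301.5 bp. The promoter peaks of protein-coding genes had a median of 1290 bp and quartiles of 950 and 1745 bp. The members thus lay on both sides of the usual width, 1 below the lower quartile and 3 above the upper one. The shelterin genes held both ends of this range, and those of TERC and DKC1 were close to its centre.

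**Figure D4:**
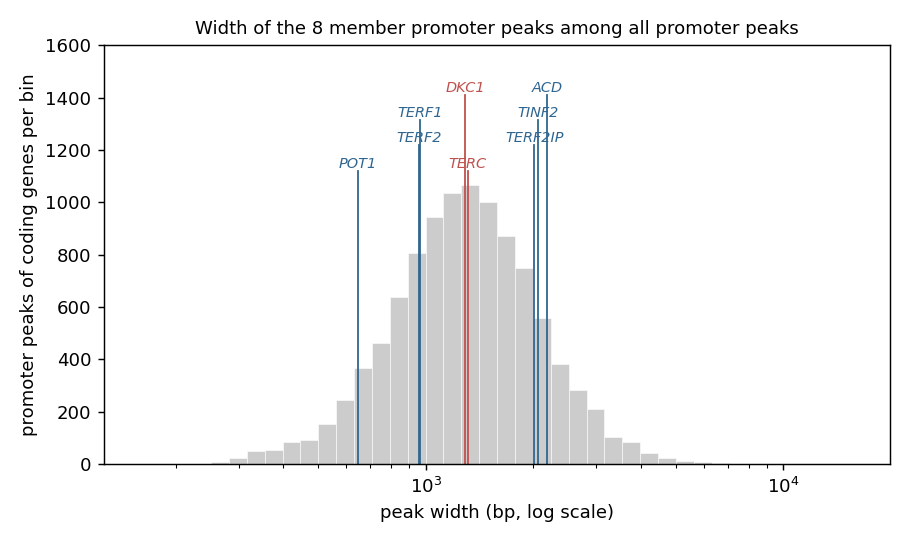
Histogram of the width of all 10376 promoter peaks of protein-coding genes (x axis, bp, log scale; y axis, number of peaks per bin), with a vertical line for each of the 8 promoter peaks of telomerase (red) and shelterin (blue) genes, TERC being the one that is not protein-coding. Line height only separates the names. POT1 lies below the lower quartile of 950 bp, and TERF2IP, TINF2 and ACD lie above the upper quartile of 1745 bp.

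ETS cores were counted in the 200 bp centred on each midpoint, since no summits are listed. At least 1 core was present in 7 of the 8 promoter peaks, against 51.9% of the promoter peaks of protein-coding genes. ACD had 3 cores, DKC1, TERF2 and TERF2IP had 2 each, and TERC, TERF1 and TINF2 had 1 each. These were 12 cores in 8 peaks, where all those promoter peaks had a mean of 0.797. The single sequences were present in 13.0% (AGGAAA), 23.4% (AGGAAG), 10.5% (CGGAAA) and 21.0% (CGGAAG) of them. The count depended on the sequence asked for, because CCGGAA was present in 2 of the 8, DKC1 and TERF2, against 18.8%. In the whole peak interval the core was found in all 8 and in 97.9% of all promoter peaks, so that at that size its presence separates nothing.

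Most peaks assigned to these loci were not at the genes themselves. By position, 8 of the 38 were promoter peaks, 1 lay elsewhere in a gene body, 3 elsewhere within 5 kb of a TSS and 26 in the 50 kb flanks. Among the TSSs of protein-coding genes and of TERC, the nearest belonged to the gene of the locus for 11 peaks and to another gene for 27, of which 16 lay within 500 bp of a TSS of that gene. Of all 26961 nuclear peaks 38.5% lay within 500 bp of a TSS of a protein-coding gene. For TERT, TERC, DKC1, TERF1, TERF2, POT1, TINF2, TERF2IP and ACD the peaks in the locus numbered 5, 6, 1, 1, 8, 1, 11, 2 and 3. In the same order, the other protein-coding genes with a canonical TSS in the window numbered 1, 4, 2, 1, 9, 0, 12, 5 and 4. The windows differed in size, from 100541 bp at TERC to 214100 bp at TERF2IP, and no relation between these numbers was tested. A peak in the gene body was present at 7 of the 9 genes, against 53.4% of protein-coding genes. A peak in the body or within 50 kb was present at all 9, against 81.9% of protein-coding and 62.6% of lncRNA genes. These shares were not counted for genes with a CpG-rich promoter alone.

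The other genes of telomere maintenance were described by a list of 31 genes, chosen with earlier results of these data known. A promoter peak was present at 27 of them, or 87.1%, against 53.1% of all protein-coding genes. A total of 28 have a CpG-rich promoter, of which 24 had the peak, against 71.4% of all protein-coding genes with such a promoter. All 13 genes placed in a broad group for telomerase assembly and the processing and trafficking of its RNA had one. Not every gene of this group is an established factor of these steps. Among the 13 are NOP10, NHP2 and GAR1, which bind TERC together with dyskerin, and WRAP53, which brings the RNA to Cajal bodies. In the CST complex, which caps the single-stranded end and helps fill in the opposite strand, STN1 and TEN1 had a promoter peak and CTC1 did not. Of the 15 genes for end processing, replication and accessory functions, 12 had one.

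Genes without a promoter peak differed in how far away the nearest one was. At CTC1 the midpoint of a peak of 1082 bp lay 1012 bp upstream of the TSS, within 5 kb. At MRE11, a nuclease subunit of the complex that senses broken ends, it lay 50372 bp upstream, at ATRX, a chromatin remodeller lost in tumours with alternative lengthening of telomeres, 124431 bp upstream, and at the helicase gene WRN 221254 bp upstream. TERT, at 18346 bp, falls between CTC1 and these. The widest promoter peaks of the list were those of ZBTB48 (4149 bp), which encodes a telomere repeat-binding zinc finger protein, DAXX (2210 bp), the partner of ATRX, and WRAP53 (2186 bp). The median of the widest promoter peak per gene was 1133 bp, against 1290 bp for all promoter peaks of protein-coding genes. A core in the central 200 bp was present at 13 of the 27 genes with a promoter peak, against 51.9% of all those promoter peaks.

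**Figure D5:**
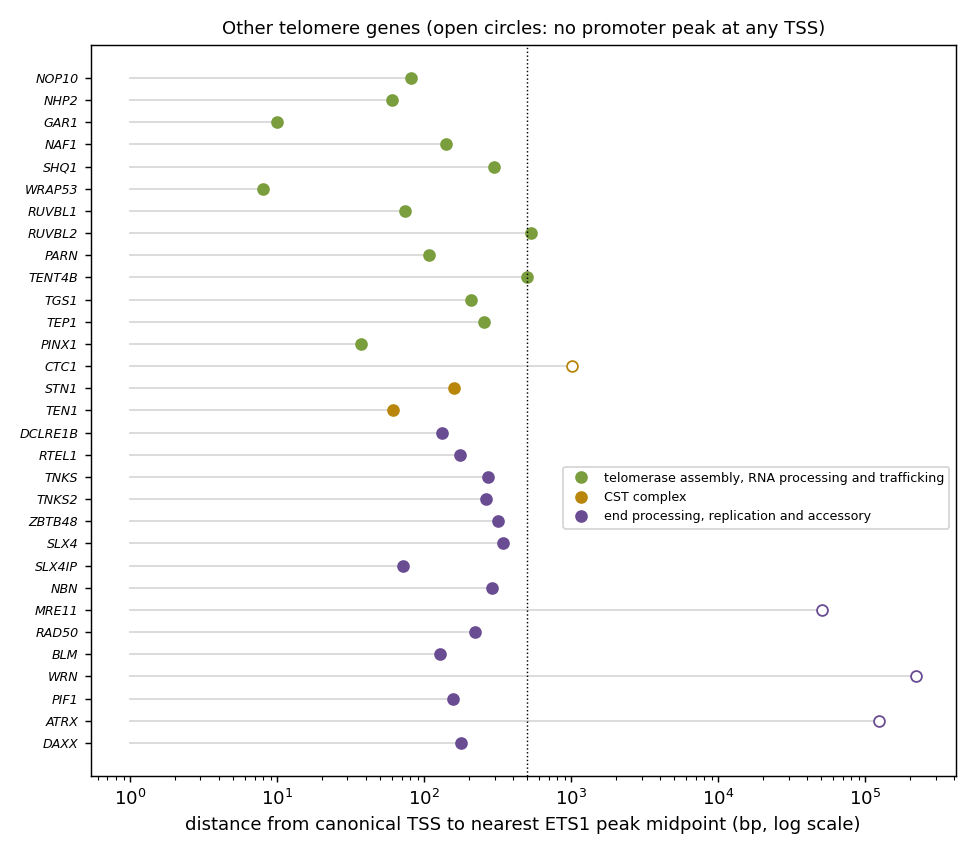
Distance from the canonical TSS to the nearest ETS1 peak midpoint (x axis, bp, log scale) for the 31 other telomere genes, coloured by group. Filled circles are genes that have a promoter peak at any TSS and open circles those that do not. The dotted line marks 500 bp. CTC1, MRE11, WRN and ATRX are the 4 open circles, and WRN is the farthest, at 221254 bp.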

How the data were processed

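ETS1 ChIP-Seq libraries of 3 SCC25 samples (C20 antibody, 2; 501A antibody, 1) were sequenced by the authors, who mapped reads to hg19 (Bowtie 1.1.1 and SAMtools 1.3 in the submitters' processing notes), removed reads with several loci, called peaks with MACS2 against input and combined them by IDR. The values the authors deposited are peak positions in bp, 1 list for the pool of samples, with no signal unit. Reads removed for mapping to several loci would include those of the telomere repeats themselves, which are outside this list.

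Positions are given 1-based. Genes came from GENCODE 44 mapped to GRCh37, the nuclear sequence of hg19, and 9 mitochondrial peaks were left out of the counts by gene. The midpoint stood for the peak, all annotated TSSs of a gene counted, and the canonical transcript gave single distances from a member. The nearest gene of a peak was found with all annotated TSSs. Neighbouring genes were placed in a window by their canonical TSS. TERF2IP has long annotated transcripts that extend its gene body. Sequence was scanned on both strands in Python 3.11.15 with numpy 2.4.6 and pysam 0.24.0, and figures were drawn with matplotlib 3.10.9. Tested on simulated data, the code found 1000 of 1000 planted genes and 300 of 300 planted motifs with 0 false calls.

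The members and the list of 31 other genes were chosen with earlier results of these data known. The text names all 9 members, each gene whose TSS, among protein-coding or among all genes, was the nearest to a peak of their loci, and of the other telomere genes those without a promoter peak and the 3 widest. LRRC34, GAB3, MPP1, ENSG00000289979, NOP10, NHP2, GAR1, STN1 and TEN1, and the partners KARS1 and PARD6A, were named after their values were seen. With 1 pooled list no test was possible. Alternatives varied the part of the list, the use of the midpoint, the TSS set, each distance, the sequence window and the motif.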

Additional observations from a re-analysis of the deposited data

How the results depend on the processing

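Of 31 alternative values, 29 were within 1.5 times the one reported. The exceptions were the number of peaks in the loci, which was 16 with flanks of 10 kb in place of 38 with 50 kb, and the promoter peaks with a motif in the central 200 bp, which numbered 2 with CCGGAA in place of 7 with the ETS core. TERT had no promoter peak under any alternative run, including any overlap of the peak interval, the canonical TSS alone and a limit of 1000 bp. In the first 13485 peaks of the list 7 of the 9 genes had a promoter peak, DKC1 being the one lost, against 34.8% of protein-coding genes. The share among genes with a CpG-rich promoter was not counted for this part of the list. With a window of 600 bp, 8 promoter peaks held a core, against 88.0% of all promoter peaks. No paired analysis was possible because the list pools the 3 samples and has no column for any of them, and for the same reason no replicate could be left out. Depth per sample is unknown from the list, so a gene without a peak had none that passed the IDR threshold, and binding below it was not detectable.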
